A study of Arabidopsis thaliana with 9 samples.

Results

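Seed storage proteins and oleosins were followed through 10 Arabidopsis loci, picked by locus identifier out of the 32833 genes of the deposited table. They are 3 cruciferins (12S globulins: CRA1, CRB and CRU3), 4 napin-type 2S albumins (SESA1, SESA2, SESA3 and SESA4) and 3 oleosins (OLEO1, OLEO2 and OLEO4). RNA came from whole seedlings aged 6 days, grown on MS medium with 0.5% sucrose under light that was never switched off, at an intensity of 125 µE m-2 s-1. The 9 libraries form 3 groups of 3: Col-0 wild type (wt), green 2cpab seedlings (2cpab_green) and albino 2cpab seedlings (2cpab_albino). The mutant name refers to 2CPA and 2CPB, which encode the chloroplast's 2-Cys peroxiredoxins. Its alleles, the sorting of green from albino seedlings and the number of seedlings per library are not given in the sources used here. The labels do not tell whether the replicates of a group were grown apart. A p-value therefore reflects no more than how these libraries scatter, and that scatter may be technical.

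Cruciferins and 2S albumins are the main protein reserves of the Arabidopsis seed. They are made during seed maturation, packed into storage vacuoles and broken down after germination to feed the seedling. Oleosins coat the oil bodies that hold the seed's triacylglycerol and keep them from fusing. In the embryo these genes are switched on by the B3 transcription factors ABI3, FUS3 and LEC2, which recognise the RY motif, together with bZIP factors that bind ACGT-containing elements such as the G-box. VAL proteins, Polycomb complexes and the chromatin remodeller PICKLE keep the seed programme silent in seedlings.

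The sequence just before these genes holds many of those letters. The RY motif CATGCA was found in the 250 bases before the annotated start of 9 of the 10 genes and in 8.43% of 27443 protein-coding genes, both strands searched. Of the 10 windows, 8 held it more than once, overlapping copies counted separately, against 1.66% of all. The G-box CACGTG was in 5 windows, those of the 4 albumins and OLEO1, against 6.49% of all genes. The shorter ACGTG, which every G-box contains, was in 6 windows against 22.9%, and TATAAA was in 6 against 47.3%. RY and ACGTG occurred together in 6 windows and in 2.22% of all. A match describes letters and is not a proven site. The 4 windows below were read from RefSeq's TAIR10.1 genome and run 5′ to 3′ on the gene's strand up to the base before its start. Capitals mark CATGCA and ACGTG on either strand. SESA2 and SESA3 are shown because the ratio of these neighbours differs between groups, and CRA1 and OLEO1 because they rose in both mutant groups.
SESA2 (AT4G27150), chr4:13609091-13609340, plus strand: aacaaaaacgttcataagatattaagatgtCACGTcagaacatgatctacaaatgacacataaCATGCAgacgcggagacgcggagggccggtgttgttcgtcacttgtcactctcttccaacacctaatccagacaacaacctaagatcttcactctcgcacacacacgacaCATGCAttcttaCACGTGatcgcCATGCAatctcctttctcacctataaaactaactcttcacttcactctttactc
SESA3 (AT4G27160), chr4:13611546-13611795, plus strand: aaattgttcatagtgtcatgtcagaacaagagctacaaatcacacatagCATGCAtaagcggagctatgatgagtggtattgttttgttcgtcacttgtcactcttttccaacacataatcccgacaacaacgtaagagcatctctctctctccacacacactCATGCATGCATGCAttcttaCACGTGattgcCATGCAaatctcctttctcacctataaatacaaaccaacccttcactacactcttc
CRA1 (AT5G44120), chr5:17758337-17758586, minus strand: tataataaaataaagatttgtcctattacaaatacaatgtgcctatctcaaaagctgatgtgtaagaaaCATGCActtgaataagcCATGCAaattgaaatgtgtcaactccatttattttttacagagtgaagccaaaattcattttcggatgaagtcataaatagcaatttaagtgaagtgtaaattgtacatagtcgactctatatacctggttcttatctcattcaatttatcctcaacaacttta
OLEO1 (AT4G25140), chr4:12900180-12900429, plus strand: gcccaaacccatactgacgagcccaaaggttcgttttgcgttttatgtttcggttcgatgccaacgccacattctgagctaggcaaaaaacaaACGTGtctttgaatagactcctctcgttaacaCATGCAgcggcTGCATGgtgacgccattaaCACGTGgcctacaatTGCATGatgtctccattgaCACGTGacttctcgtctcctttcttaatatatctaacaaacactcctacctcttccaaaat

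SESA2 and SESA3 share the end of the window: counted from the gene start, a G-box begins at -65 and -67 and an RY motif at -54 and -56. SESA1 and SESA4 have the same arrangement, with the G-box at -65 and -67 and the RY motif at -54 and -56. Further out the albumins part, as SESA3 holds 7 overlapping or single RY matches, SESA4 6, SESA2 3 and SESA1 2. OLEO1 holds 2 G-boxes, at -95 and -61, and 3 RY motifs. CRA1 and OLEO2 each hold 2 RY motifs and no ACGTG, and CRU3 holds 1 RY motif with 3 copies of ACGTG.

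Levels are given as scaled FPKM (fragments per kilobase and depth-normalised, times a factor that gives every library the same 75th percentile), in the order of replicates 1, 2 and 3. Fold changes are differences of log2(scaled FPKM + 1), which understate the change of weak genes, followed by their standard error. The depth of the libraries is unknown, since the table holds no counts. The libraries listed between 22926 and 23963 genes above 0. Wild-type libraries held 2CPA at 989, 763 and 890, green ones at 35.8, 267 and 256, and albino ones at 24.2, 21.4 and 25.4. 2CPB stood at 237, 174 and 188, then 7.21, 48.7 and 54.2, then 1.82, 2.89 and 1.52. Green replicates 2 and 3 thus kept more of both RNAs than green replicate 1. Summed over 7 genes of photosynthesis, green cotyledon markers ranged from 35412 to 46021 in wild-type, 30599 to 49567 in green and 3938 to 4759 in albino libraries. No gene of the 10 shares a 50-base exon stretch with any other place in the genome, and coding sequences within the albumins are 80.6% to 89.7% identical. The longest identical run of coding bases was 49, between SESA2 and SESA3, just under that window. Whether reads were shared between these neighbours was not tested.

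Of the 9 genes that passed the filter on low values (3 or more libraries reaching a scaled FPKM of 1; OLEO4 did not), 5 rose in green against wild-type seedlings and none fell. They were CRA1, CRU3, SESA2, OLEO1 and OLEO2, tested with limma at a Benjamini-Hochberg adjusted p of 0.05 over 19731 genes. In the same comparison 3.71% of all tested genes rose and 5.16% fell. In albino against wild-type seedlings 4 rose, the same set without SESA2, and none fell, where 23.4% of all tested genes rose and 20.1% fell. The median fold change of the 9 genes was 1.64 and 1.89 on the log2 scale in the 2 comparisons, beside 0.02 and 0.07 over all genes. These albino calls were 4613 genes higher and 3968 lower, and became 12212 and 2104 when libraries were scaled to a common sum instead (TPM), under which 7 of the 9 genes rose. Both comparisons share the wild-type libraries. Between the mutant groups only SESA2 differed, lower in the albino libraries, where 17.7% of all genes were lower and 18.5% higher (3483 and 3648; 1839 and 11859 under TPM scaling). In whole seedlings, fewer cells that hold a transcript and less of it per cell cannot be told apart.

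**Figure D1:**
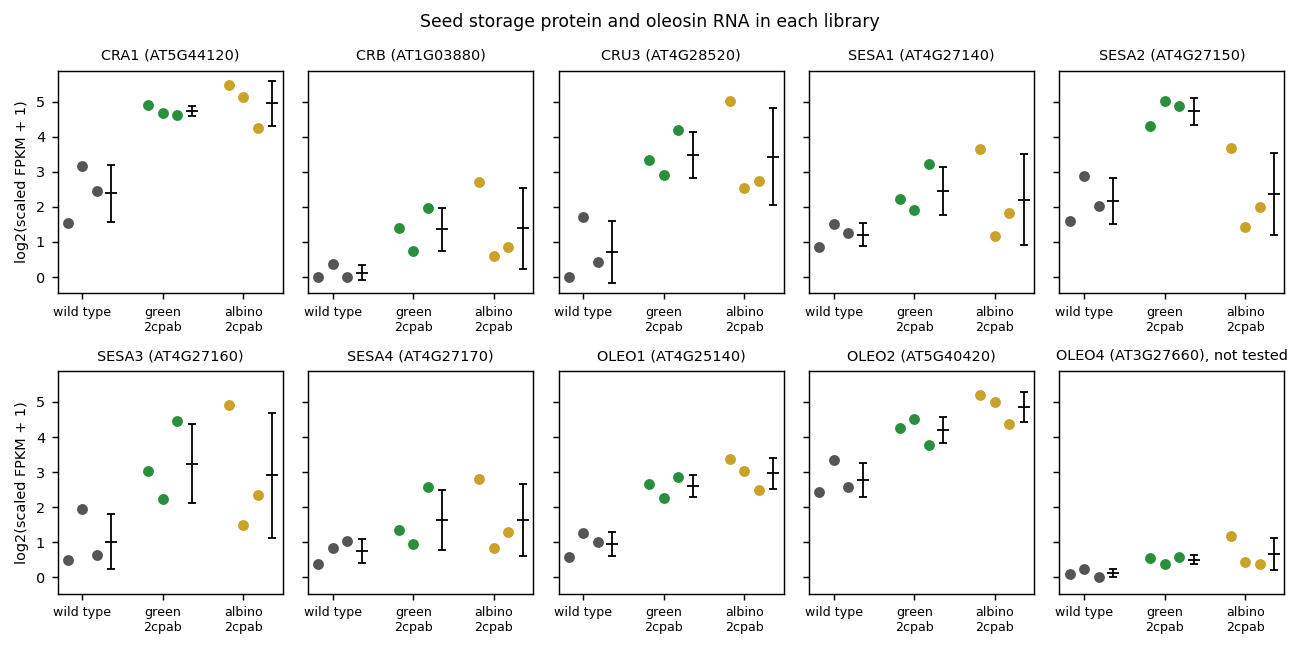
Scaled FPKM of each of the 10 genes in the 9 libraries, as log2(scaled FPKM + 1), with 1 point per library and a bar for the mean and SD of each group. The cruciferins CRA1, CRB and CRU3 and the oleosins OLEO1, OLEO2 and OLEO4 lie above every wild-type library in all 6 mutant libraries. SESA2 separates the green from the albino libraries.

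CRA1 (AT5G44120, chromosome 5, 17756238 to 17758336), the most abundant cruciferin transcript, read 1.94, 7.99 and 4.46 in wild-type, 28.8, 24.4 and 23.6 in the green and 43.7, 34.3 and 17.9 in the albino libraries. Every mutant library lay above every wild-type library. The albino mean was 32.0 ± 13.1 (SD, n = 3), and the difference from the wild type was 2.56 ± 0.39 (limma adjusted p = 0.000587). Albino and green libraries overlapped, with a difference of 0.23 ± 0.39 (limma adjusted p = 0.688). CRU3 (AT4G28520, chromosome 4, 14087556 to 14089796) encodes another 12S globulin. Wild-type libraries listed it at 0, 2.25 and 0.343, green ones at 9.13, 6.46 and 17.1 and albino ones at 31.7, 4.77 and 5.68. It rose by 2.76 ± 0.66 in green (limma adjusted p = 0.0302) and by 2.72 ± 0.66 in albino seedlings (limma adjusted p = 0.00811), again with no overlap with the wild type. The green call of CRU3 did not hold without any 1 of wild-type replicates 1 and 3 and the 3 green replicates (limma adjusted p of 0.0541 to 0.0954). That call was also lost at a pseudocount of 5, without the filter on low values and with robust variances. CRB (AT1G03880, chromosome 1, 985751 to 988146), the third cruciferin, was the weakest. It was listed at 0, 0.304 and 0 in wild-type, at 1.65, 0.666 and 2.89 in green and at 5.55, 0.509 and 0.824 in albino libraries. CRB thus passed the filter through mutant libraries alone, and a fall from the wild type could not have been seen. Its groups did not overlap with the wild type either, but the differences of 1.24 ± 0.50 and 1.26 ± 0.50 did not pass (limma adjusted p = 0.182 and 0.0672). The green difference passed without albino replicate 1 and the albino one without albino replicate 2 (limma adjusted p = 0.0366 and 0.0339). The albino difference also passed at a pseudocount of 0.1, under TPM scaling and with the authors' scaling undone. Groups with the mutants entirely above the wild type were found for 12% of all tested genes in green and 31.5% in albino seedlings.

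**Figure D2:**
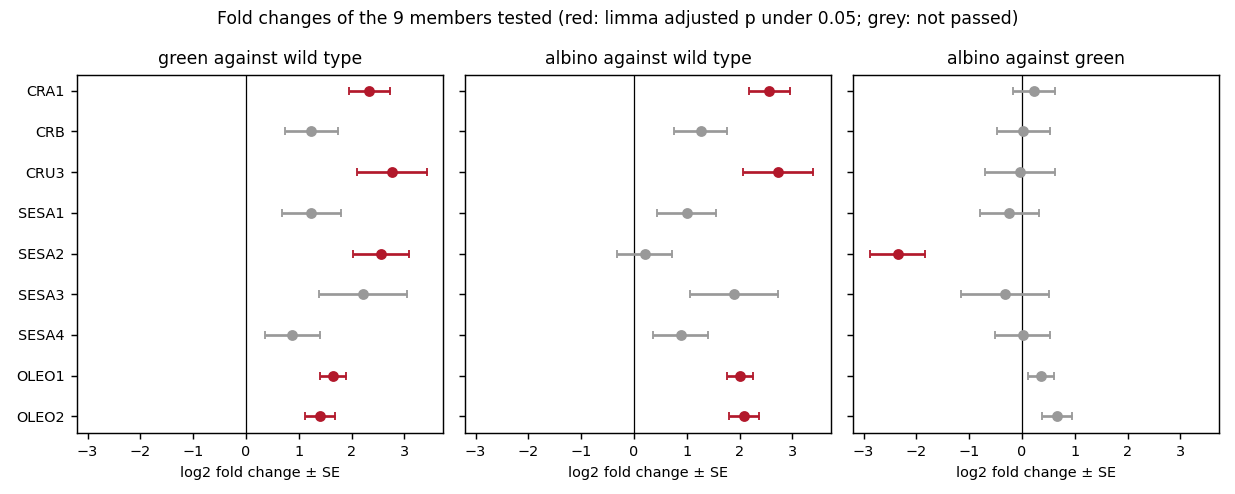
Log2 fold change and standard error of the 9 tested genes in the 3 comparisons; red points passed an adjusted p of 0.05. All 9 points lie above 0 in both comparisons with the wild type, and in the comparison of the mutant groups SESA2 alone passed.

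The 4 albumin genes stand in a row on chromosome 4 (13607329 to 13614283), each encoding a precursor of a small cysteine-rich storage protein. SESA2 (AT4G27150) read 2.02, 6.42 and 3.08 in wild-type, 18.7, 31.6 and 28.2 in the green and 11.9, 1.69 and 3.03 in the albino libraries. All green libraries were above all others, and only albino replicate 1 exceeded the wild type. The rise in green seedlings was 2.56 ± 0.52 (limma adjusted p = 0.0157), and the albino value was 0.20 ± 0.52 from the wild type (limma adjusted p = 0.78). Albino libraries were lower than green ones, with a log2 difference of -2.35 ± 0.52 (limma adjusted p = 0.00643). The green call was lost on removal of wild-type replicates 1 or 3 or of green replicate 2 (limma adjusted p = 0.0517, 0.0558 and 0.0595). The difference between the mutant groups passed with each of the 9 libraries left out in turn, and did not when replicate 1 stood alone for the green group. Highest albino below lowest green was found for 23.8% of all tested genes.

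The other 3 albumins did not pass in any comparison. SESA3 (AT4G27160), the closest relative of SESA2 in coding sequence at 89.7% identity, read 0.403, 2.83 and 0.556 in wild-type, 7.11, 3.70 and 20.9 in the green and 28.9, 1.79 and 4.13 in the albino libraries. Its differences were 2.21 ± 0.84 in green and 1.89 ± 0.84 in albino seedlings (limma adjusted p = 0.153 and 0.0952). The albino difference was 0.90 without albino replicate 1. It was 2.61 without albino replicate 2 and passed then, as it did under TPM scaling and with the authors' scaling undone (limma adjusted p = 0.0378, 0.0247 and 0.0345). SESA1 (AT4G27140) read 0.81, 1.86 and 1.40, then 3.66, 2.74 and 8.32, then 11.5, 1.23 and 2.54. The albino difference of SESA1 from the wild type passed at 1.48 under TPM scaling (limma adjusted p = 0.0485). SESA4 (AT4G27170) read 0.302, 0.801 and 1.03, then 1.54, 0.937 and 5.0, then 5.95, 0.788 and 1.43. In SESA1, SESA3 and SESA4, replicate 3 of the green and replicate 1 of the albino group stood above the other libraries of their groups, and the albino group overlapped with the wild type. SESA2 did not follow this order within the green group, where replicate 2 was highest.

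Within the albumin row, SESA2 gave 57.2%, 53.9% and 50.8% of summed albumin FPKM in wild-type libraries and 60.3%, 81.1% and 45.1% in green ones. In albino libraries it gave 20.4%, 30.7% and 27.2%, below every other library. The ratio of SESA2 to SESA3 was 5.02, 2.27 and 5.54 in wild-type, 2.63, 8.55 and 1.35 in the green and 0.412, 0.943 and 0.733 in the albino libraries. SESA3 thus read higher than SESA2 in the albino libraries and lower in the other 6. In albino replicate 2 the margin was small, with SESA2 at 1.69 and SESA3 at 1.79. SESA3 was weak in wild-type replicates 1 and 3, at 0.403 and 0.556, and the counting error of such values is unknown.

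**Figure D3:**
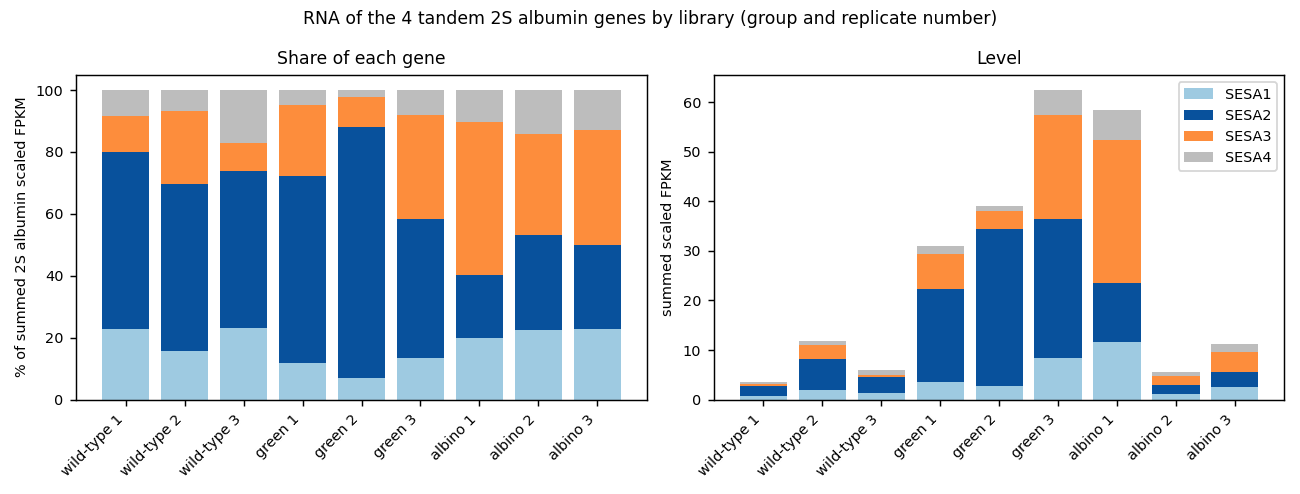
Share of each albumin gene in the summed scaled FPKM of SESA1 to SESA4, in percent, for each of the 9 libraries (left), and the summed level itself (right). SESA2 makes up 45.1% to 81.1% of the bar in wild-type and green libraries and 20.4% to 30.7% in albino ones.

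OLEO1 and OLEO2 rose in both mutant groups. OLEO1 (AT4G25140, chromosome 4, 12900430 to 12901577), the major oleosin of the seed, read 0.507, 1.39 and 1.02 in wild-type, 5.37, 3.78 and 6.29 in the green and 9.30, 7.23 and 4.62 in the albino libraries. It rose by 1.64 ± 0.25 in green (limma adjusted p = 0.00365) and by 2.01 ± 0.25 in albino seedlings (limma adjusted p = 0.000158). OLEO2 (AT5G40420, chromosome 5, 16173340 to 16174783) was the stronger of the pair, at 4.42, 9.12 and 4.93, then 18.2, 21.9 and 12.8, then 35.5, 31.0 and 19.8. It rose by 1.41 ± 0.28 (limma adjusted p = 0.0146) and by 2.08 ± 0.28 (limma adjusted p = 0.000294). No mutant library of either gene overlapped with the wild type. The green call of OLEO2 was lost without wild-type replicate 3 or green replicate 2 (limma adjusted p = 0.0574 and 0.0575). When green seedlings were represented by replicate 1 alone, OLEO1 was the only gene of the 9 still called in them. Albino values were above green ones by 0.37 ± 0.25 for OLEO1 and 0.67 ± 0.28 for OLEO2, which did not pass (limma adjusted p = 0.282 and 0.0945). For OLEO2 that difference passed without wild-type replicate 2 or albino replicate 3 (limma adjusted p = 0.0499 and 0.0429). OLEO4 (AT3G27660, chromosome 3) was too weak to be tested, at 0.0755, 0.17 and 0 in wild-type, 0.48, 0.294 and 0.501 in the green and 1.28, 0.345 and 0.309 in the albino libraries. OLEO1 overlaps AT4G25150 on the opposite strand by 44 bases and OLEO2 overlaps AT5G40410 by 15. AT4G25150 did not pass in any comparison, and AT5G40410 was too weak to be tested.

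Summed over the 10 genes, scaled FPKM was 10.5, 33.1 and 16.8 in wild-type, 94.6, 96.5 and 126 in the green and 185, 83.7 and 60.3 in the albino libraries. In ppm of the summed FPKM of all genes these are 15.2, 48.7 and 27.2, then 160, 134 and 192, then 387, 177 and 125. Libraries of a group thus differed, and the same library was highest for most genes. Wild-type replicate 2 was the highest of its group in 9 genes, green replicate 3 in 7 and albino replicate 1 in all 10, whereas those libraries were highest in 37.6%, 26.7% and 35.4% of all tested genes. The lowest albino library was replicate 2 in 6 genes and replicate 3 in 4, against 28.1% and 41.6% of all tested genes. As a ratio of the highest to the lowest albino library, the range was smallest for OLEO2, OLEO1 and CRA1 and wider for the albumins, CRB and CRU3. Removing albino replicate 1 left the 4 albino calls in place, as did the removal of any other single library. Over the 9 libraries, the mean profile of the tested genes correlated most with CRU3 (Pearson r = 0.996) and least with SESA2 (r = 0.681). Each gene is itself part of that mean, which raises its r.

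Other genes of seed reserves and oil-body coats followed in part. Of 22 listed genes 14 were tested, of which 10 rose and 1 fell in each mutant group (medians 1.11 in green and 0.84 in albino seedlings). Of all tested genes, 3.71% rose and 5.16% fell in green and 23.4% rose and 20.1% fell in albino seedlings. PAP85, SESA5, OLEO3, CLO3 and OBAP1A stayed under 1 in every wild-type library and passed the filter through mutant libraries alone. In these genes a fall from the wild type could not have been seen. LDAP2, a lipid droplet-associated protein, read 1.15, 4.10 and 1.53 in wild-type, 18.5, 17.3 and 13.4 in the green and 34.2, 38.7 and 44.7 in the albino libraries. It rose by 2.51 ± 0.28 and 3.72 ± 0.28 (limma adjusted p = 0.000936 and 8.37e-06). CLO3, a stress-induced caleosin of oil bodies, read 0.79, 0 and 0.68 in wild-type, 1.61, 0.981 and 1.97 in the green and 30.4, 20.6 and 37.6 in the albino libraries, a rise in the albino group of 4.36 ± 0.27 (limma adjusted p = 3.66e-06). LDAP1 and the vicilin-like gene AT4G36700 were high in green seedlings. LDAP1 read 31.7, 35.9 and 36.2, then 135, 240 and 275, then 34.1, 35.8 and 78.0. It rose by 2.55 ± 0.33 in green (limma adjusted p = 0.00178) and did not pass in albino seedlings (0.39 ± 0.33, limma adjusted p = 0.357). That albino difference was 0.016 without albino replicate 3, and it passed at 0.86 under TPM scaling and at 0.80 with the authors' scaling undone (limma adjusted p = 0.0236 and 0.0359). AT4G36700 read 11.1, 32.5 and 18.5, then 84.5, 152 and 99.1, then 6.24, 4.06 and 3.10. It rose by 2.46 ± 0.36 in green (limma adjusted p = 0.00318) and fell by 1.91 ± 0.36 in albino seedlings (limma adjusted p = 0.00199). Of the other oleosin genes on the list 3 were tested and are named here after their values were seen. OLEO3 rose by 1.00 ± 0.20 and 1.01 ± 0.20 (limma adjusted p = 0.0139 and 0.00264), and OLEO5 by 1.41 ± 0.26 and 1.14 ± 0.26 (limma adjusted p = 0.00875 and 0.00546). AT2G25890 read 3.47, 4.82 and 1.66 in wild-type, 10.2, 7.47 and 3.99 in the green and 0, 14.0 and 8.88 in the albino libraries, and did not pass (limma adjusted p = 0.594 and 0.753). The fall in green was that of LDAP3, named after its values were seen, which fell by 0.50 ± 0.09 (limma adjusted p = 0.00849).

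A gene chosen after its values were seen, the fifth albumin SESA5 (AT5G54740) on chromosome 5, was likewise high in green seedlings. It read 0.346, 0.532 and 0.227 in wild-type, 5.44, 7.51 and 5.55 in the green and 1.44, 0.618 and 0.415 in the albino libraries. All green libraries were above all others. It rose by 2.38 ± 0.21 in green (limma adjusted p = 0.00042), did not pass in albino seedlings (0.38 ± 0.21, limma adjusted p = 0.166) and was lower in albino than in green libraries, with a log2 difference of -2.00 ± 0.21 (limma adjusted p = 7.88e-05). The albino difference from the wild type was 0.15 without albino replicate 1. It passed at 0.74 under TPM scaling and at 0.56 with the scaling undone (limma adjusted p = 0.0245 and 0.0363).

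**Figure D4:**
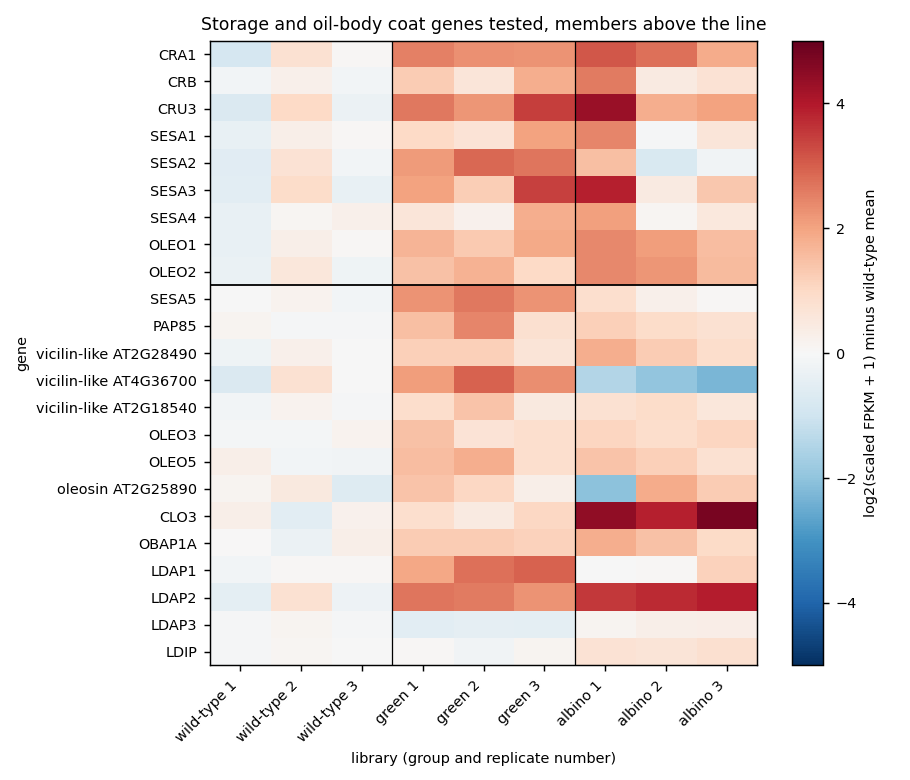
Log2(scaled FPKM + 1) minus the wild-type mean of each gene, in each of the 9 libraries, for the 9 tested genes (above the line) and the 14 other storage and oil-body coat genes tested (below it). SESA2, SESA5, LDAP1 and AT4G36700 are high in the green columns, and CLO3 and LDAP2 are highest in the albino columns.

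Genes of late seed maturation, mostly LEA proteins that protect drying cells, were higher too. Of 20 tested, 11 rose in green seedlings and none fell, and 15 rose and 1 fell in albino ones (medians 1.13 and 1.43). All tested genes together gave 3.71% higher and 5.16% lower in green, and 23.4% higher and 20.1% lower in albino seedlings. M17 and TIP3-2 of this list passed the filter through mutant libraries alone, so a fall could not have been seen in them. RAB18, a dehydrin, read 3.59, 4.11 and 5.60 in wild-type, 14.0, 29.6 and 6.81 in the green and 41.1, 32.7 and 28.0 in the albino libraries, and rose by 1.51 ± 0.40 and 2.69 ± 0.40 (limma adjusted p = 0.0443 and 0.000476). LEA7 rose by 1.29 ± 0.25 and 2.64 ± 0.25 (limma adjusted p = 0.0115 and 2.81e-05). EM6 read 3.14, 7.55 and 2.33, then 14.4, 25.4 and 7.87, then 17.6, 19.4 and 11.0, with rises of 1.64 ± 0.43 and 1.76 ± 0.43 (limma adjusted p = 0.0421 and 0.00819). The LEA gene AT3G53040 rose by 1.21 ± 0.29 and 1.68 ± 0.29 (limma adjusted p = 0.0302 and 0.00119). RAB18 and EM6 were lowest in green replicate 3, the library in which CRU3, SESA1, SESA3 and SESA4 were highest of the green group. The count in green seedlings rested on single libraries: it dropped to 2 on removal of wild-type replicate 1 or 3, to 3 on removal of green replicate 1 or 2 and to 6 on removal of albino replicate 2. AT3G53040 lost its green call without wild-type replicate 1 or 3 or green replicate 1 or 2 (limma adjusted p of 0.0818 to 0.104). EM6 lost it without any 1 library other than wild-type replicate 2 and green replicate 3 (limma adjusted p of 0.0505 to 0.139). RAB18 lost it without any 1 library other than green replicate 3 (limma adjusted p of 0.0614 to 0.114).

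Among regulators of the seed programme, many activators were weak, and few genes passed in green seedlings. Of 15 activators 7 were tested, and in green seedlings 0 passed with limma (1 at an unadjusted p under 0.05). Over all tested genes 3.71% rose and 5.16% fell there. In albino seedlings 1 activator rose and 2 fell, where 23.4% of all tested genes rose and 20.1% fell. LEC1, LEC2 and MYB115 were listed at 0 in every library, and the mean of FUS3 was 0.0814 in green and 0.12 in albino seedlings. ABI5, a bZIP factor of abscisic acid (ABA) response, rose in albino seedlings by 1.08 ± 0.20 (limma adjusted p = 0.00169). BZIP53, which acts on albumin promoters with other bZIP factors, fell by 1.02 ± 0.15 (limma adjusted p = 0.000435), and EEL, a bZIP factor of embryo maturation, by 0.57 ± 0.19 (limma adjusted p = 0.0373). The count of activators called in albino seedlings, after adjustment, was 5 when replicate 1 of the wild-type or of the green group was removed. The call of EEL was lost without wild-type replicate 2 or 3 or any 1 albino library (limma adjusted p of 0.0559 to 0.125). Of 16 tested repressors, RING1A, a Polycomb ring-finger protein, fell in green seedlings by 0.33 ± 0.09 (limma adjusted p = 0.0496), a call lost without any 1 of the 9 libraries. In albino seedlings MSI1, a histone-binding Polycomb subunit, rose by 0.37 ± 0.09 (limma adjusted p = 0.00625). BMI1A, another Polycomb ring-finger protein, fell by 0.36 ± 0.11 and RING1A by 0.25 ± 0.09 (limma adjusted p = 0.0222 and 0.0492). 1 of these 3 calls was left when wild-type replicate 1 or either of albino replicates 2 and 3 was removed. The falls of RING1A and BMI1A in albino seedlings turned to rises when libraries were scaled to a common sum.

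Genes that sort, process and break down storage proteins were called in albino seedlings for 7 of 15, all higher, and in green seedlings for 0 of 15 (2 at an unadjusted limma p under 0.05). Among all tested genes, 23.4% rose and 20.1% fell in albino seedlings, and 3.71% rose and 5.16% fell in green ones. CATHB3, a cathepsin B-type protease, rose in albino seedlings by 1.44 ± 0.15 (limma adjusted p = 5.93e-05). BETA-VPE and GAMMA-VPE, vacuolar processing enzymes that cut storage protein precursors, rose by 1.20 ± 0.23 and 0.89 ± 0.13 (limma adjusted p = 0.00232 and 0.000369). RD21A, a vacuolar cysteine protease, rose by 0.81 ± 0.12 (limma adjusted p = 0.000473). In the breakdown of seed oil, 11 of 14 genes rose and 1 fell in albino seedlings, against 1 and 1 in green ones, beside the same shares over all genes. The isocitrate lyase gene ICL and the malate synthase gene MLS, both of the glyoxylate cycle, rose in albino seedlings by 4.14 ± 0.35 and 2.61 ± 0.36 (limma adjusted p = 1.7e-05 and 0.000288). ICL also rose in green seedlings, by 1.67 ± 0.35 (limma adjusted p = 0.0175), a call lost without wild-type replicate 1 (limma adjusted p = 0.0549). CSY3, a peroxisomal citrate synthase, rose in albino seedlings by 1.38 ± 0.16 (limma adjusted p = 8.98e-05). CGI58, a regulator of lipid homeostasis, fell by 0.77 ± 0.15 in green and 1.37 ± 0.15 in albino seedlings (limma adjusted p = 0.0126 and 7.69e-05).

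Among 18 tested genes of ABA synthesis and signalling, 3 rose and 2 fell in green seedlings, and 13 rose and 3 fell in albino ones. The shares over all tested genes were 3.71% higher and 5.16% lower in green, and 23.4% higher and 20.1% lower in albino seedlings. CYP707A3, an ABA hydroxylase that inactivates the hormone, fell by 1.44 ± 0.23 in green (limma adjusted p = 0.00491) and fell by 4.15 ± 0.23 in albino seedlings (limma adjusted p = 2.52e-06). The phosphatase genes HAI1 and ABI1, whose products restrain ABA signalling, rose in albino seedlings by 1.68 ± 0.17 and 1.41 ± 0.16 (limma adjusted p = 4.15e-05 and 8.58e-05). ABA1, the zeaxanthin epoxidase, fell by 1.38 ± 0.16 (limma adjusted p = 0.000114). The green count was 3 without wild-type replicate 1 or 3, any 1 green library or albino replicate 2.

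**Figure D5:**
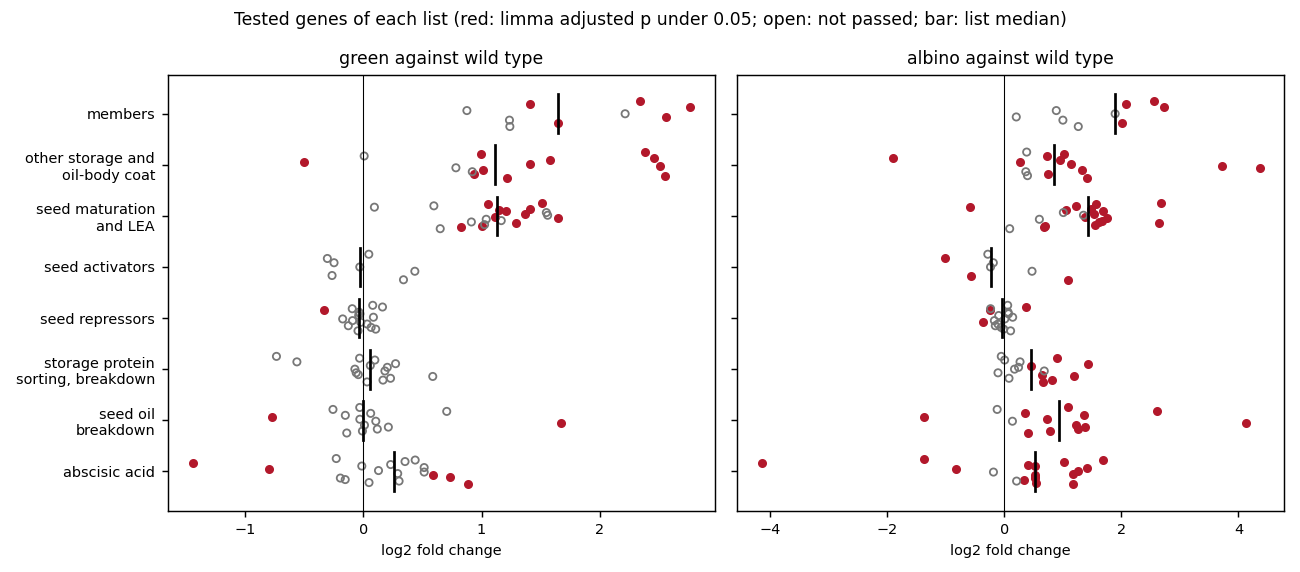
Log2 fold changes of the tested genes of each list in the comparisons with the wild type, 1 point per gene (red where the adjusted p was under 0.05) and a bar for the list's median. The reserve, oil-body and maturation lists lie mostly above 0 in both panels, and the activators and repressors lie around 0.

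Cells left over from the seed were looked for through markers of the seed coat and endosperm. Of 10 markers 5 were tested. Among those too weak to be tested, BAN and ZOU were listed at 0 in every library. TT10 was higher in the albino libraries than in all others, and TT12 was at 0 in the albino libraries only. Summed over the 10 markers, scaled FPKM ranged from 27.3 to 32.8 in wild-type, 33.2 to 39.1 in green and 35.0 to 44.8 in albino libraries. The sum averaged 30.8, 35.3 and 38.6 in these groups, and EPR1 within it 3.31, 7.84 and 10.3. MUM2, the most abundant marker, averaged 18.3, 17.9 and 17.5. Of the 5 tested markers, 5 did not pass in green and 4 did not in albino seedlings, where their median was 0.06. EPR1, an extensin-like protein of the endosperm, rose in albino seedlings by 1.23 ± 0.34 (limma adjusted p = 0.0144), a call lost without wild-type replicate 1 (limma adjusted p = 0.0501). EPR1 read 18.2 in albino replicate 1 and 7.28 and 5.36 in the others, and its albino difference was 0.76 without albino replicate 1. In green seedlings EPR1 lay above every wild-type library, and its difference of 1.04 ± 0.34 did not pass (limma adjusted p = 0.0941). It passed without albino replicate 1 and in a fit of the 6 libraries compared (limma adjusted p = 0.00648 and 0.0094). Summed root markers, 7 genes, ranged from 114 to 204 in wild-type, 113 to 145 in green and 192 to 233 in albino libraries. Of them TIP2-3, a tonoplast aquaporin, and EXPA7, an expansin of root hairs, rose in albino seedlings by 1.51 ± 0.23 and 0.68 ± 0.21 (limma adjusted p = 0.00056 and 0.0247). Over all tested genes 23.4% rose and 20.1% fell in that comparison. The call of EXPA7 was lost without wild-type replicate 1 or albino replicate 2 or 3. All 7 cotyledon markers fell in albino seedlings. The light-harvesting gene LHB1B1 fell by 5.07 ± 0.23 and LHCA1 fell by 3.93 ± 0.21. RCA, which encodes Rubisco activase, fell by 3.39 ± 0.23 and RBCS1A, which encodes a small subunit of Rubisco, fell by 3.36 ± 0.28 (limma adjusted p of 1.38e-06 to 1.4e-05 for these 4). The part of these markers, and of the lower photosynthesis transcripts of albino seedlings, in the changes of the reserve genes was not tested.

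Of 16 genes that neighbour the 10 loci 12 were tested, and in green seedlings PHB1, a prohibitin next to CRU3, rose by 0.40 ± 0.09 (limma adjusted p = 0.0261). That call was lost without wild-type replicate 1 or 3 or green replicate 1 or 2. In albino seedlings 5 rose and 3 fell. Over all tested genes 23.4% rose and 20.1% fell in albino seedlings, and 3.71% rose in green ones. FLA13 beside CRA1 and FLA9 beside CRB, fasciclin-like arabinogalactan proteins, fell by 1.71 ± 0.16 and 1.47 ± 0.14, and PMSR4 before OLEO1, a peptide methionine sulfoxide reductase, fell by 1.11 ± 0.16. LBD25, next to OLEO4, rose by 1.05 ± 0.12. The rise of PHB1 in albino seedlings was 0.62 ± 0.09 (limma adjusted p = 0.000472). ABCI21 beside CRA1 rose by 0.60 ± 0.16 and AT5G40405 beside OLEO2 by 0.38 ± 0.12 (limma adjusted p = 0.0138 and 0.0296). The first of these calls was lost without wild-type replicate 1 or albino replicate 2, and the second without wild-type replicate 1 or 3 or albino replicate 1 or 2. The flanking genes of the albumin row, AT4G27130 and the kinesin gene ATK2, differed from the wild type in green seedlings by 0.18 ± 0.09 and -0.015 ± 0.078, and neither passed (limma adjusted p = 0.305 and 0.943). In albino seedlings AT4G27130 rose by 0.41 ± 0.09 (limma adjusted p = 0.00622), and ATK2 did not pass (0.015 ± 0.078, limma adjusted p = 0.896).

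Of all other tested genes, those whose levels followed the mean profile of the 9 genes most closely over the 9 libraries were AT3G25130 (Pearson r = 0.955), NRPB3 (0.947), AT3G27150 (0.946), AT3G15080 (0.945), EPR1 (0.941), AT4G16807 (0.938), GAF1 (0.933) and AT5G59170 (0.929). These are the highest of the correlations of all tested genes over libraries that fall into 3 groups, and are given as a description. NRPB3, a subunit of RNA polymerase II, averaged 12.6 ± 0.59 in wild-type, 14.1 ± 0.524 in the green and 14.2 ± 1.25 in the albino libraries. AT5G59170 read 0.683, 0.584 and 0.93, then 1.89, 1.91 and 2.88, then 4.49, 2.11 and 1.59, with albino replicate 1 highest as in the reserve genes.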

How the data were processed

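RNA sequencing of 9 libraries was analysed, 3 in each of 3 groups taken from the labels. Per the submitters' processing notes, FastQC, HISAT2 and StringTie were used with the TAIR10 genome, versions not given in the sources used here; the labels' protocols name poly(A) RNA and a stranded kit. The authors deposited log2 values. Read from the values, they are log2 of a factor times FPKM, plus 1, with the same 75th percentile (3.70 on the log2 scale) in every library; its mean was 1.05 for the wild-type, 1.04 for the green and 0.787 for the albino group. After it was undone, 71.2% to 73.0% of values under 5 fell on a grid of 6 decimals (tolerance 0.05 of a step). The plan had expected plain FPKM, and the log transformation it foresaw was already in place. Total counts were not used here, so depth and counting error are unknown.

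The 19731 genes reaching a scaled FPKM of 1 in 3 or more libraries were fitted with limma 3.58.1 (R 4.3.3), with group means over all 9 libraries and a variance trend, and Benjamini-Hochberg adjustment over all tested genes. The code was tested on simulated data. Python 3.11.15, pandas 2.3.3, numpy 2.4.6, biopython 1.88 and matplotlib 3.10.9 did the rest. Names, positions and sequences came from RefSeq's TAIR10.1, which matched 32548 genes; the authors' notes name TAIR10, and the file holds no coordinates.

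The genes and the 11 other lists were chosen with earlier results of these data known. The text names all 10 genes, 2CPA and 2CPB, up to 4 called genes of each list with the largest change from the wild type (or else 2 with the largest mean), called neighbours, and the 8 genes most alike in profile. Alternatives used a pseudocount of 0.1 or 5, no filter or a minimum of 5, other scalings, other variance models, a required 2-fold change, the replicate block, each library in turn and the use of green replicate 1 alone. The removal of both albino replicate 1 and green replicate 3 was added after seeing the data. Protein sequences and levels were not analysed here. Promoter sequences are not printed for 6 of the 10 genes.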

Additional observations from a re-analysis of the deposited data

Results flagged for a closer look

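The effect against the wild type differed between green and albino seedlings for SESA2, whose albino libraries were lower than the green ones, with a log2 difference of -2.355 in limma's direct comparison. Of the 14 other storage and oil-body coat genes tested, 7 differed likewise, chosen after their values were seen where the naming rule did not take them. Among all tested genes 18.5% were higher and 17.7% lower in albino than in green seedlings. The albino-minus-green difference was -2.00 for SESA5, -2.16 for LDAP1 and -4.36 for AT4G36700, which were higher in green seedlings. It was 3.58 for CLO3, 1.21 for LDAP2, 0.76 for LDAP3 and 0.73 for LDIP, a partner of the LDAP proteins, which were higher in albino seedlings. With both albino replicate 1 and green replicate 3 left out, LDAP2 no longer passed (limma adjusted p = 0.0504). The groups also differ in 2CPA and 2CPB RNA and in photosynthesis transcripts, which cannot be told apart from pigment here.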

How the results depend on the processing

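Green against wild type, 2 to 6 of the 9 genes were called with 1 library left out at a time, 3 without wild-type replicate 1 and 2 without wild-type replicate 3 or green replicate 2; CRA1 and OLEO1 were called in each of these. When green replicate 1 stood alone for its group, its spread being assumed to equal that of the other groups, 1 was called. Albino against wild type, 4 to 6 were called with 1 library left out, and 7 when libraries were scaled to a common sum (TPM). Albino against green, 1 to 2 were called with 1 library left out, 3 under TPM scaling and 3 with the authors' scaling undone (OLEO1 and OLEO2 higher beside SESA2 lower), and 0 with green replicate 1 alone. TPM scaling and the undone scaling moved the median of all genes in albino against wild-type seedlings from 0.07 to 0.51 and 0.43, and calls over all genes from 8581 to 14316 and 13918 (albino against green from 7131 to 13698 and 13070). Requiring 2-fold left 491, 2439 and 1947 calls in the 3 comparisons, against 1751, 8581 and 7131; without wild-type replicate 3 or green replicate 2, green calls fell to 1038 and 1126. Among the lists in albino against wild-type seedlings, TPM scaling raised the called repressors from 3 to 12, the sorting and breakdown genes from 7 to 13 and the root markers from 2 to 6, and a 2-fold requirement left 8 of 16 ABA genes and 2 of 7 sorting and breakdown genes (GAMMA-VPE and RD21A among those lost). A stricter filter left 6 of 11 other storage genes in either mutant group. Green maturation calls went from 11 to 7 at a pseudocount of 5, 2 without the filter and 4 in a fit of the 6 libraries compared.

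Whether replicate numbers pair the libraries is not stated in the labels. Correlations of deviations from the group mean ran from -0.15 to 0.28 for same-numbered libraries of different groups. They ran from -0.36 to 0.15 for differently numbered ones. Between wild-type and green libraries, replicates 2 and 3 gave 0.28 and 0.27 when the numbers matched. They gave -0.36 and -0.27 when crossed. With a replicate block, CRU3 was lost in green seedlings (limma adjusted p = 0.0571), and green maturation calls went from 11 to 15. In albino against green 2 genes, SESA2 and OLEO2, were then called. Members, and other named genes where called, were recomputed under each alternative. Signs turned in differences that had not passed. Albino against green, CRB was -0.11 at a pseudocount of 0.1, -0.0040 by median of ratios, -0.036 by quantile normalization and -0.015 with green replicate 1 alone; SESA4 was -0.026, -0.021 and -0.047 under the first 3 of these. CRU3 was 0.031 at a pseudocount of 5, 0.37 under TPM, 0.31 with scaling undone and 0.091 with green replicate 1 alone; SESA1 was 0.090 under TPM and 0.057 with scaling undone, and SESA3 0.033 under TPM. With 1 library left out, CRA1 ran from -0.038 to 0.58, CRB from -0.64 to 0.42, CRU3 from -0.84 to 0.41, SESA1 from -0.96 to 0.29, SESA3 from -1.32 to 0.40 and SESA4 from -0.57 to 0.49. SESA2 in albino against wild-type seedlings ran from -0.45 to 0.68, and without both albino replicate 1 and green replicate 3 it was -0.45; in albino against green CRA1 was then -0.093, CRB -0.34 and SESA4 -0.089. Calls that turned were those under TPM of RING1A (0.15; 0.097 with scaling undone) and BMI1A (0.036) in albino against wild-type seedlings, and of BMI1A in albino against green (0.041). Depth is unknown, so the counting error of weak genes such as CRB, SESA4 and OLEO4 cannot be given.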
